A study of Mus musculus with 4 samples.

Results

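The 8 mouse GIMAP genes measured here, Gimap1 and Gimap3 to Gimap9, were taken by name and matched by Ensembl gene ID to the deposited tables, where they are 8 of 50600 annotated genes. RNA was sequenced from primary mouse cells of strain C57BL/6NJ labelled T-helper 17, in 4 libraries that form 1 group, biological replicates 1 to 4. The labels give each library its own biosample record, share 1 donor record among them, state neither age nor sex and name no treatment, and the series has no control group. A protocol for differentiating CD4 T cells is linked, while the headers of the tables tag each alignment as hour 0. Whether the libraries came from separate animals or cultures is not stated, so the spread between them may be technical.

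GIMAP proteins, the GTPases of immunity-associated proteins, are a family of small to mid-sized GTPases found mainly in lymphocytes, with a GTP-binding AIG1 domain. Their genes sit side by side in 1 cluster in mammals. Several members are known to be needed for lymphocyte survival: rats and mice that lack Gimap5 lose most peripheral T cells, and mouse lymphocytes need Gimap1 to persist in the periphery. Gimap3 and Gimap5 proteins bind members of the BCL2 family, which set the threshold for mitochondrial cell death, and Gimap4 is known to speed the death of T cells once they are committed to it.

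The family is defined by its GTP-binding site, whose best known element is the P-loop, the stretch that holds the phosphates of the nucleotide. The coding sequence of the P-loop was read from the GENCODE M21 transcripts (mm10, chromosome 6) to show how close the members are to each other. Capitals mark the glycine, lysine and serine codons at the positions fixed in the general P-loop pattern. Another glycine codon, in lower case because the pattern leaves it free, was present in every sequence. Each sequence is 24 bases long, 5′ to 3′ on the coding strand.
Gimap3: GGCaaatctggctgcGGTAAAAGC
Gimap4: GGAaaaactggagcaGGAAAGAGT
Gimap6: GGGaaaacaggaagcGGGAAAAGT
Gimap8 copy 1: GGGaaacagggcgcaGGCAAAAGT
Gimap8 copy 2: GGGaagcgtggtgttGGGAAAAGT
Gimap8 copy 3: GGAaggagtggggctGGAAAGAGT
Gimap9: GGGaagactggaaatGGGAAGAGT
Gimap1: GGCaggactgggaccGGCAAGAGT
Gimap7: GGGaaaacaggaagtGGAAAGAGC
Gimap5: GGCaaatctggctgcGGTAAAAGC
Each P-loop lay within 1 exon, and all 10 ended in a serine codon. Gimap8 encoded 3 of them in its 688 codons, whereas the 7 other genes encoded 1 each in 291 to 328 codons. The P-loop codons of Gimap3, at chr6:48765887-48765910 on the minus strand, and of Gimap5, at chr6:48752594-48752617 on the plus strand, were identical, so the 10 sites had 9 different sequences. Over the whole coding sequence Gimap3 and Gimap5 were also the closest pair, with 89.5% of the bases of the shorter one identical. Among the 21 pairs that leave out Gimap8, the next closest were Gimap9 and Gimap7 at 65.6%, and the lowest was 49.1%.

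Transcripts of all 8 genes were abundant in these cells. TPM is the count of a gene per base of its exons, scaled to the same total in each library, and is the scale used here to compare genes. All 8 genes reached 1 TPM in every library, as did 45.6% of nuclear protein-coding genes. The median of the 8 mean levels was 421 TPM, against 0.355 TPM for all 21751 nuclear protein-coding genes and 34.2 TPM for the 9926 of them that reached 1 TPM in every library. Together the family made up 5938, 5490, 5905 and 5695 TPM in replicates 1 to 4, a mean of 5757 ± 208 TPM (SD, n = 4), or 0.576% of all TPM. This is 128708, 141082, 218046 and 188108 counted fragments, from library totals of 29041979 to 48808978.

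Gimap3 was the most abundant member. Its protein affects how mitochondrial DNA variants segregate in mouse blood cells, and the human counterpart is a pseudogene. Gimap3 (ENSMUSG00000039264, chr6:48764464-48770851, minus strand) had levels of 2318, 2198, 2146 and 2191 TPM in replicates 1 to 4, a mean of 2213 ± 73.6 TPM. All 4 libraries lay close together, and the gene ranked 34 among nuclear protein-coding genes, at percentile 99.8. It held 38.5% ± 1.56 of the family's summed TPM.

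Gimap4 (ENSMUSG00000054435, chr6:48684549-48692060, plus strand), the member linked to T-cell death, was at 1580, 1437, 1645 and 1613 TPM, a mean of 1569 ± 91.8 TPM. Replicate 2 was the lowest, and the gene's range lay below that of Gimap3 and above that of every other member. Gimap3 and Gimap4 together held 64.2 to 66.8% of the summed TPM.

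Gimap6 followed in level and varied most between the libraries. Its protein binds the autophagy protein GABARAPL2 and is needed for normal T-cell numbers in mice. Gimap6 (ENSMUSG00000047867, chr6:48701582-48708225, minus strand) was at 814, 678, 883 and 685 TPM, a mean of 765 ± 100.5 TPM. Replicates 1 and 3 lay above replicates 2 and 4, with the highest library 1.30-fold above the lowest.

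Gimap8, the member with 3 GTPase domains, and Gimap9 were next. Gimap8 (ENSMUSG00000064262, chr6:48647234-48660875, plus strand) was at 557, 513, 546 and 504 TPM, a mean of 530.0 ± 25.6 TPM, with replicates 1 and 3 again above replicates 2 and 4. Gimap9 (ENSMUSG00000051124, chr6:48676129-48679114, plus strand) was at 289.8, 298, 316 and 342 TPM, a mean of 311 ± 23 TPM. For this gene replicate 4 was the highest and replicate 1 the lowest, an arrangement that no other member had.

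Gimap1, Gimap7 and Gimap5 were the 3 members of lowest level. Gimap1 (ENSMUSG00000090019, chr6:48739054-48743795, plus strand), required for mature T and B cells in mice, was at 214, 217, 204 and 204 TPM, a mean of 209.7 ± 6.61 TPM, and had the smallest relative SD of the family at 3.15% of its mean. Gimap7 (ENSMUSG00000043931, chr6:48718621-48724636, plus strand), whose protein forms dimers that stimulate GTP hydrolysis, was at 83.7, 78.5, 84.6 and 85.1 TPM, a mean of 83.0 ± 3.03 TPM. Gimap5 (ENSMUSG00000043505, chr6:48746197-48754210, plus strand), a protein of lysosomal membranes whose loss causes the lymphopenia of diabetes-prone BB rats, was at 82.0, 71.0, 80.8 and 72.2 TPM, a mean of 76.5 ± 5.70 TPM. Even these last 2 genes ranked at percentiles 90.0 and 88.9 of nuclear protein-coding genes. They held 2.77% ± 0.0347 of the family's summed TPM.

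**Figure D1:**
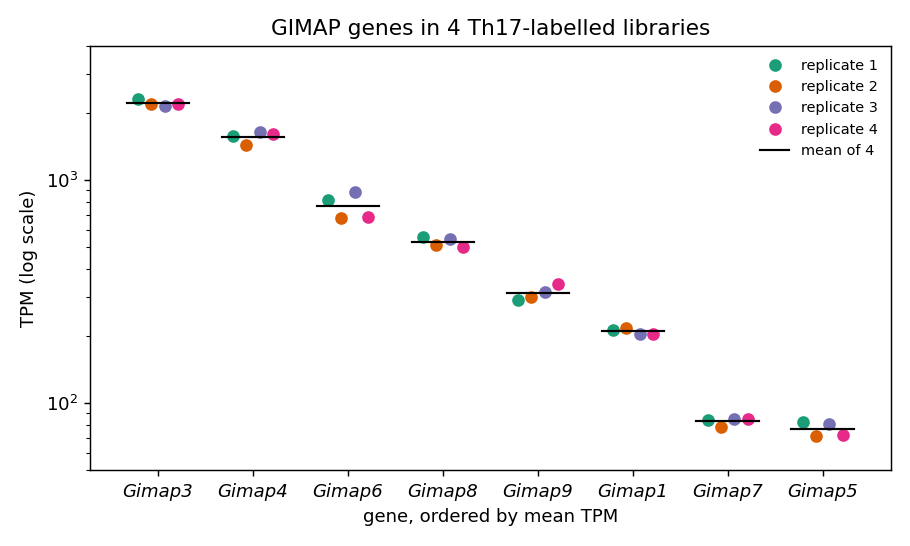
TPM of each GIMAP gene in each of the 4 libraries on a log axis, with genes ordered by mean TPM and a line at the mean of the 4. The members run from 2213 TPM for Gimap3 to 76.5 TPM for Gimap5, and the ranges of neighbours are apart except for Gimap7 and Gimap5.

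The order of the levels was compared within each library between the 7 pairs of neighbours. The ranges over the 4 libraries did not overlap in 6 pairs, and overlapped for Gimap7 over Gimap5. The smallest step was also Gimap7 over Gimap5, a log2 ratio of 0.12 ± 0.09 (SD, n = 4) or 1.09-fold, with single libraries between 1.02- and 1.18-fold. The largest were Gimap1 over Gimap7, at a log2 ratio of 1.34 ± 0.09, and Gimap4 over Gimap6, at 1.04 ± 0.15. The other 4 steps lay between 0.50 and 0.77. Each pair had the same direction in 4 of 4 libraries. The exact two-sided sign-flip permutation test gave p = 0.13 for every pair (adjusted p = 0.13 over the 7), the smallest that 4 libraries allow. The pairs and their direction came from the mean TPM of the same 4 libraries, so the test is not independent of the order. These steps depend on the gene length used. With the longest coding transcript in place of all annotated exons, Gimap1 was at 432 TPM, above Gimap9 at 369 TPM. Gimap5 was at 162 TPM, above Gimap7 at 152 TPM, while the order of the first 4 was kept. The log2 ratios were then -0.23 ± 0.15 (SD, n = 4) for Gimap9 over Gimap1 and -0.094 ± 0.092 for Gimap7 over Gimap5. The change of order of Gimap7 and Gimap5 was thus about as small as its spread. Only the lengths of the GIMAP genes were changed, without rescaling to the library total, so these values compare members with each other only.

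**Figure D2:**
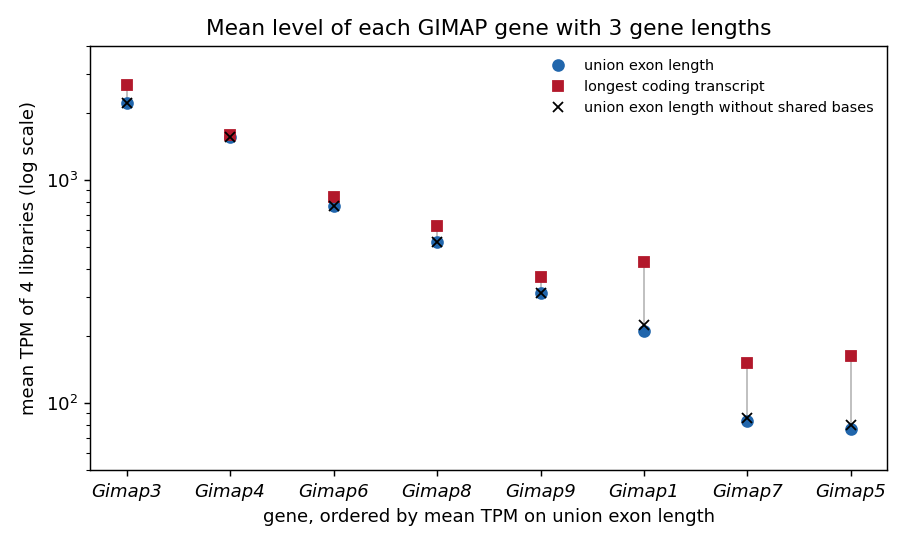
Mean TPM of each GIMAP gene over 4 libraries on a log axis, computed with the length of all annotated exons, with that of the longest coding transcript and with exon bases that no same-strand gene shares. Gimap1, Gimap7 and Gimap5 move most with the transcript length, to 432, 152 and 162 TPM. Lengths were changed for the GIMAP genes only, without rescaling to the library total.

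The closest relatives in sequence, Gimap3 and Gimap5, stood far apart in level, a pair picked out after the values were seen. Gimap3 exceeded Gimap5 by 28.3-, 31.0-, 26.6- and 30.3-fold in replicates 1 to 4 on the TPM scale, a mean of 29.0 ± 2.01. The ratio was 16.4 ± 1.14 with transcript lengths and 18.0 ± 1.25 for raw counts. Fragments that map equally well to both genes were not counted for either. Of the 50-base stretches of the longest coding transcript, 9.06% in Gimap3 and 9.98% in Gimap5 also occurred in the other gene, and in Gimap4, Gimap8 and Gimap9 0 occurred in any transcript of another gene. The part of such fragments in the ratio was not tested.

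The 2 genes also differ upstream, and their promoter windows are shown for that pair, from RefSeq on GRCm38.p6, with 250 bases before and 50 after the annotated start. Capitals mark matches on either strand to 5 short motifs: the ETS motif CCGGAA, the RUNX motif TGTGGT, the TCF/LEF motif CTTTGA, the FOXO motif GTAAACA and the KLF motif CACCC. Only these exact strings were searched. Other forms of the sites, such as ETS sites with GGAA after other bases, were not marked or counted. The windows are chr6:48770802-48771101 on the minus strand for Gimap3 and chr6:48745947-48746246 on the plus strand for Gimap5.
Gimap3: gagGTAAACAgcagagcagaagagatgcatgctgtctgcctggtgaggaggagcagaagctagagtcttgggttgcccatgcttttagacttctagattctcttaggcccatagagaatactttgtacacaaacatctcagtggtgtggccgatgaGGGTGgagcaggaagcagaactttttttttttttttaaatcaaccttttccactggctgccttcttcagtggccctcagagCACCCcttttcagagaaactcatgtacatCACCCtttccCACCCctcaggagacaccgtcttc
Gimap5: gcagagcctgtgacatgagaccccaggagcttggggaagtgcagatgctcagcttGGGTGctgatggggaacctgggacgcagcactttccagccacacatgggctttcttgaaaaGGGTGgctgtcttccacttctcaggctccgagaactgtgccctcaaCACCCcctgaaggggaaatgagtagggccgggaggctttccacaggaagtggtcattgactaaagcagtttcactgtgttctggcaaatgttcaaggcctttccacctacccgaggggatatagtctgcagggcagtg
The Gimap3 window held 1 FOXO match and 4 KLF matches, whereas that of Gimap5 held 3 KLF matches and no match to the other strings. Over all 8 genes, which have 9 windows, the FOXO motif was found only in Gimap3, and 3.65% of 32851 promoter windows of this length hold it. The KLF motif occurred in 6 of 9 windows, from 5 of 8 genes, against 57.5% of all windows. The RUNX motif occurred in 3 of 9 windows, those of Gimap1, Gimap4 and Gimap7, against 16.8% of all windows. The TCF/LEF motif occurred in 2 of 9 windows, those of Gimap4 and Gimap7, against 16% of all windows. The exact ETS string CCGGAA occurred in 0 of 9, against 14.9%. No motif overlapped another kind.

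All 8 genes lie in a 123.6 kb stretch of chromosome 6, 6 on the plus strand and 2, Gimap6 and Gimap3, on the minus strand. Within 200 kb on either side and the cluster itself, 40 genes are annotated. Of the 27 in the flanks, 7 reached 1 TPM in every library and 13 had no count at all. The highest flanking gene was Lrrc61, for a leucine-rich repeat protein, at 39.3 ± 4.46 TPM, so the least abundant GIMAP gene was 1.95-fold above it on the mean TPM scale. In the flank beyond Gimap3, Tmem176b at 3.17 ± 0.354 TPM and Tmem176a at 1.23 ± 0.356 TPM were the only genes with 10 or more counts. In the flank beyond Gimap8, Zfp775 came after Lrrc61 at 8.61 ± 0.678 TPM. Zfp862-ps, AI854703 and Gm7887 were between 4.26 and 4.97 TPM on average, Repin1 was at 1.6 TPM and Sspo at 0.203 TPM.

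Among the 5 further genes annotated inside the cluster, 3 reached 1 TPM in every library. Gimap1os, an antisense transcript across Gimap1, was at 38.8, 33.7, 36.7 and 29.7 TPM, a mean of 34.7 ± 3.94 TPM. It shares 1107 exon bases with Gimap1 on the opposite strand, and fragments were assigned by strand. The long noncoding RNA 4833403J16Rik, between Gimap5 and Gimap3, was at 27.2 ± 1.32 TPM, and a second one there, Gm44226, was at 0.703, 1.35, 2.30 and 0.647 TPM. Gm28053 runs from the start of Gimap7 through Gimap1 into Gimap5 and shares exons with these 3 genes on the same strand. It had 101, 79, 168 and 100 counts, or 10.02 ± 2.41 TPM. Its length of 989 bases includes 81, 198 and 153 bases shared with Gimap7, Gimap1 and Gimap5. The TPM of Gm28053 was not corrected for them and is therefore understated. Fragments in exons that 2 genes share on 1 strand were left out of both, and the shared part is 3.48% of exon bases in Gimap7, 6.44% in Gimap1 and 3.69% in Gimap5. Without those bases the mean levels became 86.0, 224 and 79.4 TPM, with the lengths of all other genes unchanged. The order of the 8 members was the same.

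**Figure D3:**
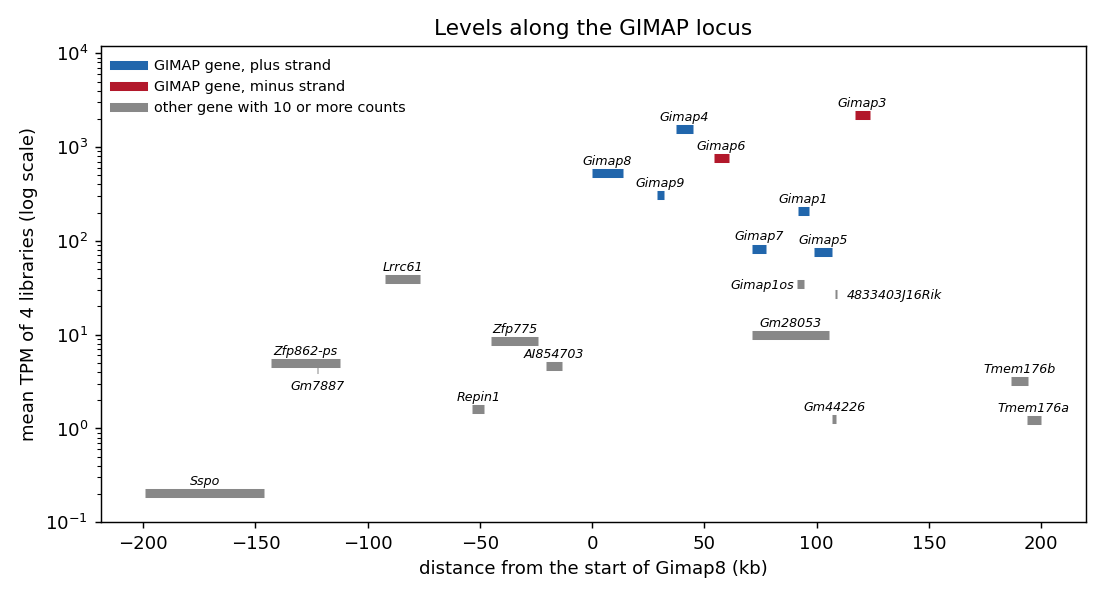
Genes with 10 or more counts within 200 kb of the GIMAP cluster, drawn from start to end by distance from the start of Gimap8 in kb, at their mean TPM over 4 libraries on a log axis. Every GIMAP gene, in blue (plus strand) or red (minus strand), lies above every other gene drawn in grey, of which Lrrc61 is the highest at 39.3 TPM.

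The replicates were then compared for the spread of each gene. With edgeR's quasi-likelihood fit over all genes, an F test compared the dispersion of each gene with the trend for its abundance. A gene was called at an adjusted p under 0.05. The dispersion lay above the trend in 4 members, which alone is not a call. All 8 GIMAP genes passed the filter on low counts and 0 were called, while the test called 24 of 12464 genes, 0.193%. DESeq2 counted 0 of the 8 among its dispersion outliers, against 0.866% of genes. At an unadjusted p under 0.05 edgeR gave 1 member, Gimap6 (edgeR adjusted p = 0.735), whose dispersion was 6.44 times the trend. Without a filter on low counts the edgeR adjusted p of Gimap6 was 0.0306, a call, in a fit that called 349 of 21421 genes, 1.63%.

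The members differed in which libraries were high. On the log2 scale of TMM-normalised CPM, the count scaled to library size, Gimap6 deviated from its 4-library mean by 0.08, -0.18, 0.24 and -0.13 in replicates 1 to 4. Gimap5 deviated by 0.08, -0.12, 0.10 and -0.06, and Gimap8 by 0.05, -0.06, 0.07 and -0.05, so that replicates 1 and 3 were the higher libraries in all 3 of these genes. This arrangement was common. In TPM, 23.6% of the 9926 nuclear protein-coding genes at 1 TPM or more in every library had replicates 1 and 3 above replicates 2 and 4, as did 3 of the 8 GIMAP genes, and 26.6% had the opposite. Of the 5 naive T-cell markers, 3 (Ccr7, Tcf7 and Lef1) had replicates 1 and 3 higher and Il7r had them lower, and of the 6 general T-cell markers 4 had them higher and Cd3e lower. Replicates 1 and 3 were the higher ones in 4 of 8 septin genes and the lower ones in 1. They were the lower ones in 5 of 5 GSK3 and beta-catenin genes, 6 of 8 BCL2 family genes, 9 of 16 interferon-inducible GTPase genes, 1 of 5 ATG8 genes and 1 of 6 ceramide synthase genes, and the higher ones in 0 genes of these 5 lists. The part of these differences in the spread of the GIMAP genes was not tested. Gimap9 deviated by -0.12, -0.08, 0.05 and 0.16, with replicate 4 highest. Gimap4 and Gimap7 had their lowest value in replicate 2, at -0.14 and -0.10. Gimap3 and Gimap1 varied least, with SDs of 0.034 and 0.023. The median SD was 0.071 over the 3707 tested nuclear protein-coding genes with a mean of 50 TPM or more, and 5 of the 8 members were above it.

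**Figure D4:**
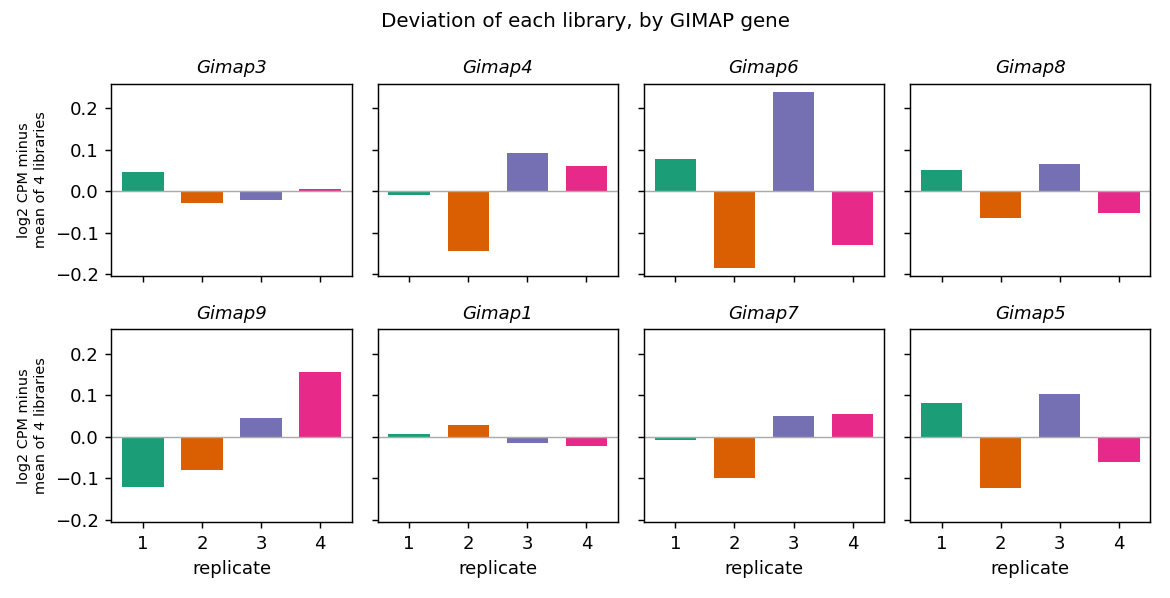
Deviation of each library from the mean of the 4 libraries on the log2 scale of TMM-normalised CPM, with 1 panel per GIMAP gene and 1 bar per replicate. Gimap6 spans -0.18 to 0.24, while Gimap1 stays between -0.02 and 0.03.

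Genes that share the level of a member across the 4 libraries were sought by the root mean square difference in log2(TPM + 1). Those nearest to Gimap3 were the ribosomal protein genes Rps16 and Rpsa, at differences of 0.065 and 0.086 and means of 2206 and 2200 TPM. Nearest to Gimap5 were Yipf4, the interferon gamma receptor gene Ifngr2 and Ambra1, at differences of 0.024, 0.039 and 0.045 and means of 77.0, 76.5 and 76.6 TPM. The summed family was nearest to Rplp0, Tmsb4x and Rps15, at 5894, 6207 and 6174 TPM, each a single gene.

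Genes for proteins that GIMAP proteins are known to bind or to act through were measured next, from lists taken from background knowledge. All 8 listed BCL2 family genes reached 1 TPM in every library, with a median of 48.1 TPM, and 0 of 8 were called by the edgeR spread test. The antiapoptotic genes Mcl1, Bcl2 and Bcl2l1 were at 566 ± 54.2, 91.7 ± 6.33 and 14.0 ± 1.36 TPM. The proapoptotic effector genes Bax and Bak1 were at 131 ± 8.65 and 58.7 ± 3.75 TPM. The listed genes of BH3-only proteins, a part of that class, were lower than these effector genes. Bcl2l11 was at 37.6 ± 5.85, Bid at 17.5 ± 0.656 and Bad at 14.6 ± 1.00 TPM. With the length of all annotated exons, Gimap3, Gimap4 and Gimap6 had higher mean levels than every gene of the list. The levels of the BCL2 family were not recomputed with transcript lengths, so Gimap5, at 76.5 TPM with exon lengths and 162 TPM with transcript lengths, is not ranked among them.

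All 5 genes of the ATG8 family, which tags autophagosomes and includes the partner of Gimap6, reached 1 TPM in every library, with a median of 37.2 TPM. Gabarap was the highest at 234 ± 6.44 TPM, followed by Gabarapl2 at 43.8 ± 2.83 TPM. Of the genes around GSK3, a kinase that Gimap5 is known to restrain in T cells, all 5 reached that level, with a median of 151 TPM, led by the beta-catenin gene Ctnnb1 at 199 ± 20.1 and Gsk3a at 186 ± 9.35 TPM. Of 6 ceramide synthase genes, whose products have been tied to Gimap5, 4 reached 1 TPM, with a median of 18.4 TPM over the 6, led by Cers2 at 149 ± 0.747 and Cers5 at 76.4 ± 7.35 TPM. The spread test called 0 genes in each of these lists, with 5, 5 and 4 genes tested.

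As a GTPase family the GIMAP genes had a higher median than the other listed GTPase families, a description with no test. The GIMAP median of 421 TPM stood against 56.6 TPM for 16 interferon-inducible GTPase genes of the GBP, IRG and MX families and 50.4 TPM for 8 septin genes. The summed level was 5490 to 5938 TPM for GIMAP genes, 1048 to 1167 TPM for the interferon-inducible genes and 1384 to 1494 TPM for septins. The highest genes of these lists were Igtp at 311 ± 18.0 and Gbp9 at 138 ± 14.2 TPM, and Septin1 at 1004 ± 40.8 and Septin9 at 209 ± 6.16 TPM. Septin1 was above 6 of the 8 GIMAP genes in mean TPM.

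**Figure D5:**
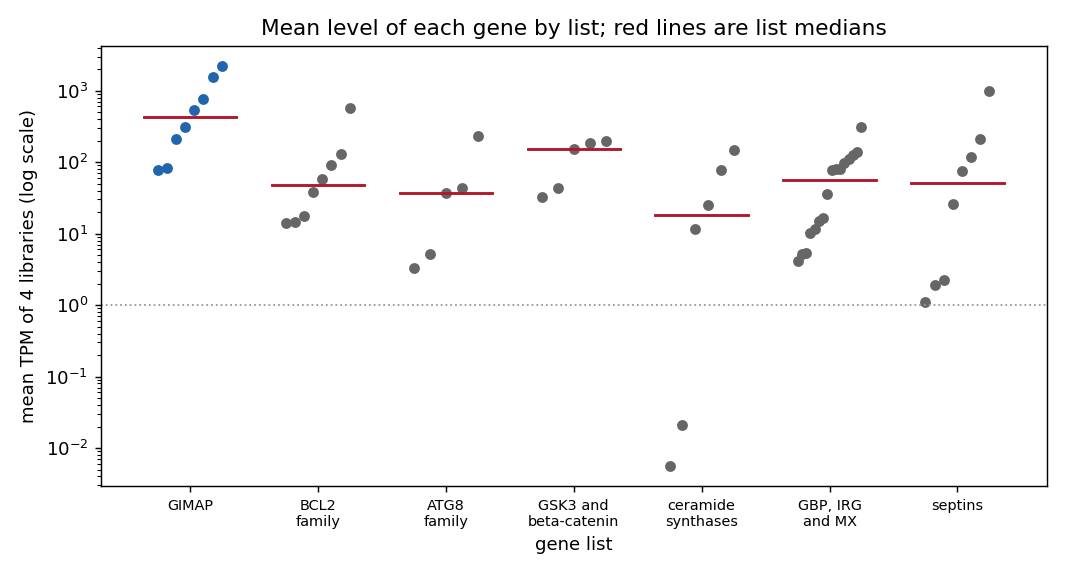
Mean TPM over 4 libraries of each gene on a log axis, by gene list, with red lines at the list medians and a dotted line at 1 TPM. GIMAP genes have a median of 421 TPM and all lie above 70 TPM, against medians of 18.4 to 151 TPM in the other lists.

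The label was checked against marker genes. All 6 T-cell markers were high, among them Cd3e at 414 ± 15.9 and Cd4 at 969 ± 34.2 TPM. Of 6 Th17 markers, 3 reached 1 TPM in every library: Il17a at 3.06 to 6.36, Il17f at 7.69 to 14.4 and Rora at 2.08 to 2.84 TPM. Il23r, Ccr6 and Il22 stayed below 0.5 TPM in each. The summed level of the 6 was 13.7 to 24.4 TPM. All 5 markers of naive T cells reached 1 TPM, with a summed level of 5151 to 5780 TPM over the libraries. The libraries are therefore called by their label only. Endothelial cells also express GIMAP genes. Of 6 endothelial markers Kdr, Emcn and Tie1 had 0 counts, and the 6 summed to 0.387 to 0.552 TPM. The 5 B-cell markers summed to 2.51 to 3.73 TPM, the 3 NK markers to 0.0405 to 0.492 TPM and the 4 myeloid markers to 1.55 to 2.73 TPM. None of the B-cell and NK markers reached 1 TPM in every library, while 1 myeloid marker did, Itgam at 1.36 to 1.89 TPM. Cd8a was at 0.150 ± 0.0772 and Cd8b1 at 42.9 ± 2.88 TPM. In bulk libraries fewer cells of a type and less RNA per cell cannot be told apart, so these levels are averages over the cells collected.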

How the data were processed

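The deposited tables hold raw fragment counts per gene, 1 library per table. Per the file headers, the authors used featureCounts 1.4.6-p4 with the exons annotated by GENCODE M13 (mm10), in pairs with both ends mapped and on the reverse strand, with no option for fragments that map to several places or genes. The sources used here do not give the aligner's version. Totals were 29041979, 35018552, 48808978 and 45490373 counts in replicates 1 to 4. The lowest member count in a library was 1622, so counting error is at most 2.48% of a value.

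From these counts TPM was computed with the deposited union exon length. Symbols came from GENCODE M21, which matched 50376 IDs and left 224 without one, and septins carry older symbols there. Spread was tested with edgeR 4.0.16 in R 4.3.3 (intercept only, TMM, filterByExpr, robust; a one-sided F test of the quasi-dispersion against the trend, Benjamini-Hochberg adjustment, adjusted p under 0.05), with DESeq2 1.42.0 as an alternative. The edgeR test was tested on simulated data. Ratios used a pseudocount of 0.1. Python 3.11.15, pandas 2.3.3 and Biopython 1.88 did the rest.

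The named genes are the 8 members, locus genes with 10 or more counts, all BCL2 genes, the top 2 of each other list and the 3 nearest genes; others shown are markers. The members and lists were chosen with earlier results of these data known. Protein sequences were not used here, and a marker and a nearest gene are not reported here.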

Additional observations from a re-analysis of the deposited data

Results flagged for a closer look

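Cers2, from the ceramide synthase list, was at 149.1, 149.2, 147.7 and 149.2 TPM in replicates 1 to 4, and replicate 3 stood apart from the other libraries by 0.911 of the whole range, although that range is small against the level. Among 49 sets of 4 libraries examined, this was the 1 with such a gap. Chance gives such a gap in about 1 of 20 sets, so 1 among 49 is not more than that rate. None of the 8 GIMAP genes nor their sum had one.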

How the results depend on the processing

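The order of the 8 levels kept all 7 steps with a pseudocount of 1, with unshared exon length (added after the data were seen) and without any 1 replicate. With CPM in place of TPM, 4 of the 7 steps kept their direction in every library. Gimap4 over Gimap6 did not, and its log2 ratio fell from 1.04 to 0.11 ± 0.15 (SD, n = 4). Gimap9 over Gimap1 turned to -0.34 and Gimap7 over Gimap5 to -0.71 (log2 ratios). With the longest coding transcript (also added then) Gimap9 over Gimap1 turned to -0.23 ± 0.15 and Gimap7 over Gimap5 to -0.094 ± 0.092. Gene length, the choice that was changed, sets these signs. With nuclear protein-coding genes as the total, the median GIMAP level of 421 TPM became 479 TPM and the summed level of 5757 TPM became 6556 TPM. As CPM the summed level was 4266. With transcript lengths the median became 526 TPM, where only the lengths of the 8 members were changed and nothing was rescaled to the total. Of the 9 alternatives of the spread test, 1 called a member, the fit without a filter, which called 1 (Gimap6). The count of all genes called, 24 in the main fit, was 349 without a filter, 10 where mean CPM had to reach 5, 5 without the robust option, 108 with DESeq2, and 7 to 86 with 1 replicate left out (13 without replicate 2, 7 without replicate 3 and 86 without replicate 4). The cause was not tested. Gimap6 had edgeR adjusted p-values of 0.0306 to 0.989 over the alternatives, and every other member stayed at or above 0.635. Coding length from a protein table was not run. No paired analysis was possible because the samples form 1 group. The 4 libraries limit the exact tests to a p of 0.13.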
